A study of Rattus norvegicus with 44 samples.

Results

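The Notch pathway was followed through 10 of the 14324 genes that had a probe set of their own on rat ovary arrays. The genes were 3 receptors (Notch1, Notch2 and Notch3), the ligands Jag1 and Jag2, the transcriptional targets Hes1, Hey1 and Hey2, and the modifiers Mfng and Numb. A gene entered when a probe set was annotated with its symbol alone, and the brightest probe set over the 38 arrays of the main set was to stand for it. Each of the 10 genes had exactly 1 such probe set. The study asked how growth factors that act on the primordial follicle alter gene expression in the ovary. Whole ovaries of 4-day-old female Sprague-Dawley rats spent 2 days in culture, either untreated or exposed to a single growth factor (50 ng/ml), and each RNA sample pooled 2 to 3 ovaries from 1 well, from pups of 1 litter. The treated groups were FGF2, FGF7, AMH, BMP4, GDNF, KITLG, LIF and PDGFab (3 samples each), set against 14 untreated controls. The paper's results text counts fewer GDNF replicates than the labels, and all GDNF samples that the labels name were used. A second set of 6 arrays, preprocessed apart, held CTGF (3 samples, 50 ng/ml) and 3 untreated controls of its own.

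Notch receptors are transmembrane proteins that are cut when a Jagged or Delta ligand on a neighbouring cell engages them. The last cut, by the γ-secretase complex, frees the intracellular part, which enters the nucleus, joins the DNA-binding protein Rbpj and switches on the Hes and Hey repressors. Mfng, the sugar transferase Manic fringe, changes how a receptor responds to its ligands, and Numb is an inhibitor that promotes removal of the receptor. In the neonatal mouse ovary, Jag1 is known from oocytes and Notch2 from the pre-granulosa cells around them, and the pathway is known to take part in forming primordial follicles.

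The targets are the end of this chain, so the promoters of Hes1 and Hey2 are shown, the first a gene that varied little here and the second a gene that varied widely. Each sequence is the 250 bases before the gene's start, from RefSeq on build GRCr8, written along the gene's own strand, and the capitals mark TGGGAA or its reverse complement TTCCCA, the core that Rbpj binds.

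Hes1, chr11:84213046-84213295, minus strand: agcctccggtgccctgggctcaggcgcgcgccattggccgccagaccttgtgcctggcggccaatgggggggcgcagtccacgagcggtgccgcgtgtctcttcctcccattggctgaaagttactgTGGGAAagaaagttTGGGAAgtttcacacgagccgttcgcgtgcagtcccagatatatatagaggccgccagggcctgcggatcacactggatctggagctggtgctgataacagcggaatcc

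Hey2, chr1:28640850-28641099, plus strand: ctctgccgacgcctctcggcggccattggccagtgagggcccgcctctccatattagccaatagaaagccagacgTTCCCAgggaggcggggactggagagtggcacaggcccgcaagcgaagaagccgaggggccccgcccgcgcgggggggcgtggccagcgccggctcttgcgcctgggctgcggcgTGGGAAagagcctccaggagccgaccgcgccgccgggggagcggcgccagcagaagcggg

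Hes1 held 2 copies in the same orientation, beginning 123 and 109 bases before the start, and Hey2 held 2 copies in opposite orientations, beginning 175 and 60 bases before it. On either strand, TGGGAA stood in this window in 22.1% of the 33469 promoters of the table. Promoters were matched for 8 of the 10 genes, all but Hey1 and Mfng, and 2 of the 8 held the core. CACGCG, a site bound by Hes and Hey proteins, was found in 4 of the 8 (Notch2, Jag1, Jag2 and Hes1) and in 7.14% of all promoters. The E box CACGTG was found in 0 of the 8 and in 5.59% of all promoters. Jag2 has a pair of entries in the table, and the site lay in 1 of them. These are matches of letters only.

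Arrays of the main set had median log2 levels of 5.93 to 6.01 and correlated with one another at r = 0.964 to 0.997, and those of the CTGF set had medians of 6.29 to 6.35. Oocyte markers such as Zp3 (11.22 ± 0.31, SD, n = 14 controls) and Gdf9 (9.85 ± 0.68) and stromal markers such as Dcn (11.42 ± 0.28) were present in the controls. A group of 4 arrays was set apart by low oocyte markers, at a mean log2 level under 9, a cutoff that was not planned beforehand. Over 6 measured oocyte markers, their mean log2 level was 7.71 for FGF2 sample 1, 8.69 for KITLG sample 1, 8.73 for LIF sample 1 and 8.12 for control 1, while the other 34 arrays lay between 9.07 and 10.26. Control 1 was also the highest of the 14 controls in surface epithelium markers (8.95, others up to 8.62) and in blood and immune markers (7.64, others up to 7.43), and the lowest in endothelial markers (6.48, others 6.54 to 7.48). Sample 1 of FGF2, KITLG and LIF had a like profile. In that order, they measured 8.87, 8.76 and 8.68 in surface epithelium markers and 7.85, 7.89 and 7.78 in blood and immune markers. In endothelial markers they measured 6.50, 6.35 and 6.62. In RNA from a whole ovary, fewer cells of a type and less RNA per cell cannot be told apart.

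With none of the 9 growth factors did any of the 10 genes pass the adjusted threshold. For each comparison limma's p-values received a Benjamini-Hochberg adjustment across all 27342 probe sets, and an adjusted p under 0.05 counted as a call. The lowest adjusted p among the 90 tests of these genes was 0.112. Of the 90 changes, 79 were smaller than 0.25 on the log2 scale, and they ranged from -0.42 (Mfng with GDNF) to 0.69 (Mfng with FGF2). In 0 of the 90 tests did the treated samples lie wholly outside the range of their controls. Over the same comparisons such a separation occurred in 1.6% of the tests of all probe sets. That share pools CTGF, which had fewer controls and where separation by chance is more likely, with the main set. It is therefore not a background for the main set alone. At an unadjusted p under 0.05 there were 4 of 90 (4.44%), all higher with treatment, where 8.85% of all probe sets reached that level over the same comparisons. The same 4 met the study criteria when limma's unadjusted p stood in for the p of the study's own test. The criteria ask for a p no higher than 0.05 and linear means that differ by 10 or more. The ratio of those means must also reach 1.2 or fall to 0.83. In this form 4.21% of all probe sets met them. The 4 were Mfng and Numb with FGF2 and Notch2 with FGF7 and with BMP4. The paper's own lists differ. They hold Mfng with AMH, where limma gave an unadjusted p of 0.181. The paper's FGF2 list holds neither Mfng nor Numb, and its FGF7 list does not hold Notch2.

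**Figure D1:**
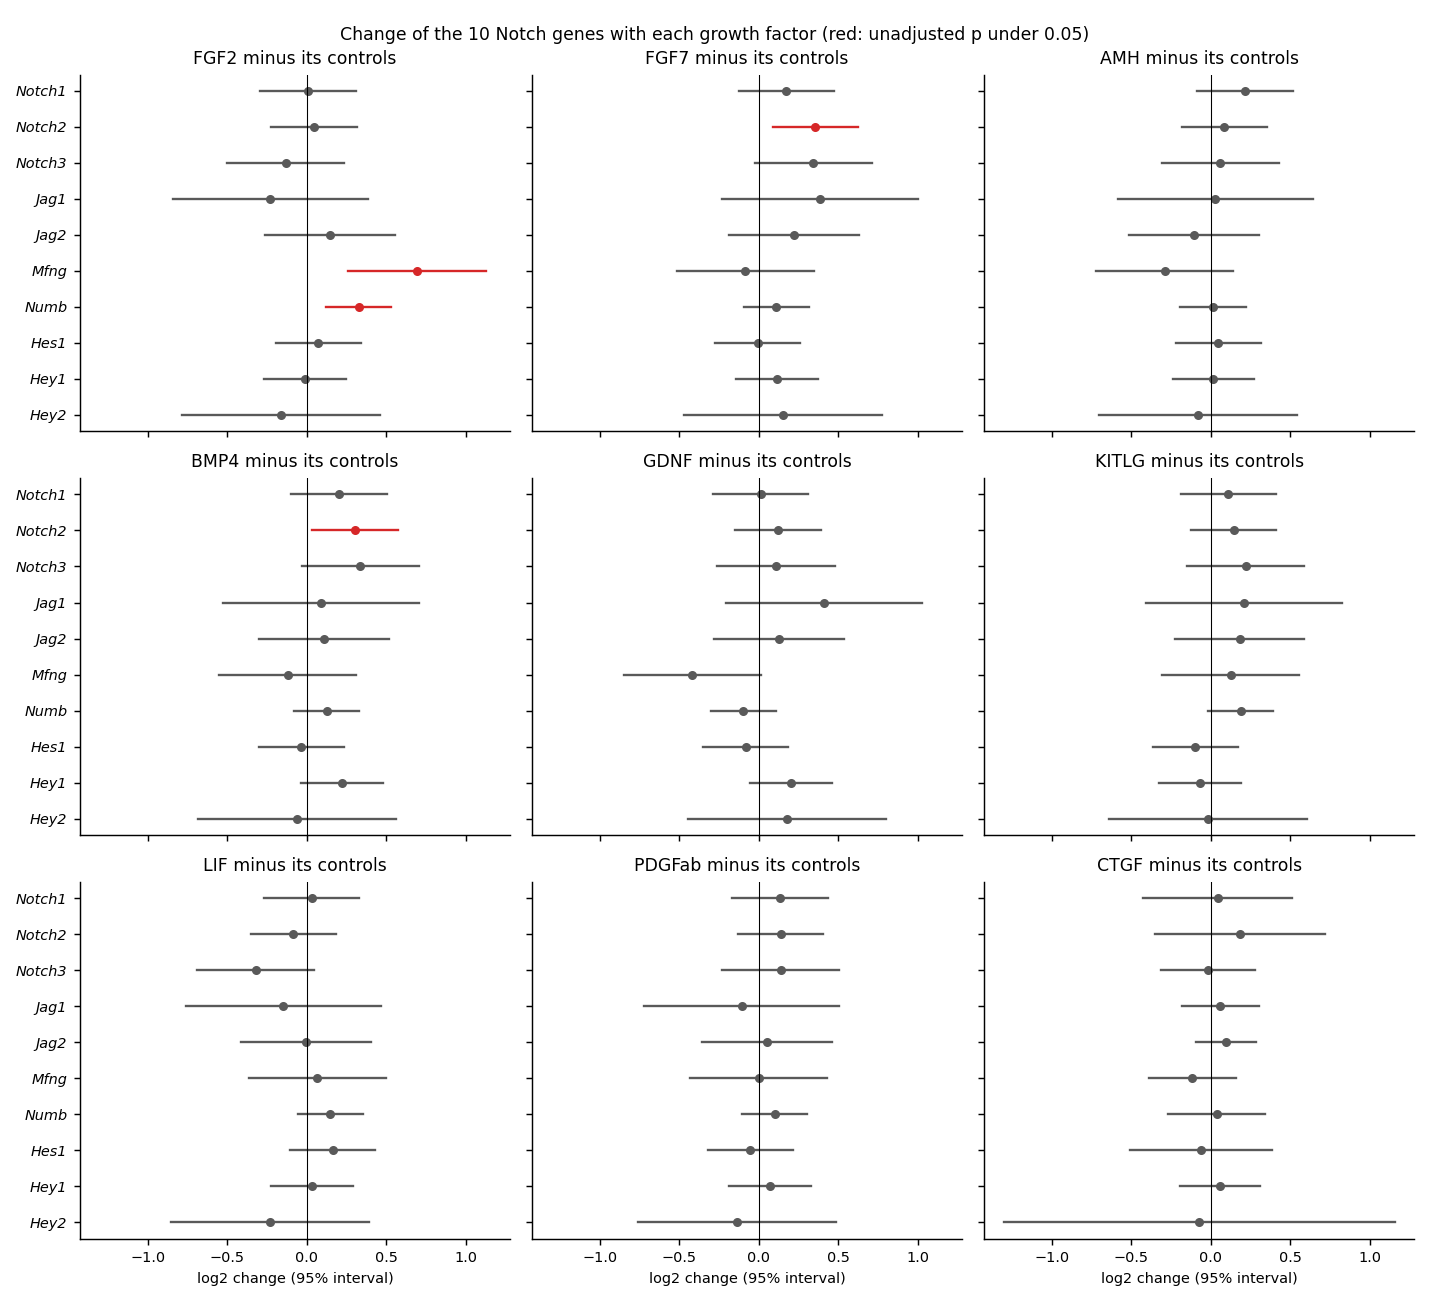
Log2 change of each gene with each growth factor minus its controls, with 95% intervals from limma (n = 3 treated samples each, against 14 controls, or 3 for CTGF); red marks an unadjusted p under 0.05. The 4 red changes are Mfng and Numb with FGF2 and Notch2 with FGF7 and BMP4, and most other intervals span 0 widely, above all for Jag1 and Hey2. The CTGF intervals are those of the fit without pairs.

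The share of all probe sets that passed the adjusted threshold was small in every comparison, so a count of 0 among 10 genes is close to that background. It was 0.94% with FGF2, 0.0805% with FGF7, 0.274% with BMP4, 1.89% with GDNF, 0.0439% with KITLG, 0.267% with LIF and 0.234% with PDGFab. With AMH and with CTGF it was 0% of the probe sets by limma. The methods' t-test with the same adjustment called 0 probe sets with CTGF, and with AMH it called 0 on log2 values and 8 on linear values. The shares that were not 0 changed when a single treated sample was left out. This also makes the group smaller, so the counts cannot separate the weight of a sample from the lost precision. With 1 treated sample left out at a time, the probe sets called numbered 13 (without sample 1) to 364 with FGF2 (257 with all samples), 0 to 22 with FGF7 (22), 0 to 7 with BMP4 (75), 59 (without sample 1) to 248 with GDNF (517), 0 whichever was left out with KITLG (12), 19 to 76 with LIF (73) and 1 to 44 with PDGFab (64). The unadjusted level was reached by 2 of the 10 genes with FGF2 (12.2% of all probe sets), 1 with FGF7 (7.57%), 1 with BMP4 (8.97%) and none with AMH (5.08%), GDNF (17.1%), KITLG (8.66%), LIF (7.25%), PDGFab (9.79%) or CTGF (3.12%). The 95% interval of a change reached 0.21 on either side for Numb, the most tightly measured gene of the main set, and 0.62 on either side for Hey2, the least. With 3 treated samples, a change smaller than its gene's own bound could not reach an unadjusted p under 0.05 in limma. A larger one could still miss the adjusted threshold, as Mfng with FGF2 did (log2 change 0.69, adjusted p of limma 0.112).

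Mfng was the gene that stood out with FGF2, a fibroblast growth factor known to promote the primordial to primary follicle transition. Its log2 level was 7.46, 6.84 and 6.65 in FGF2 ovaries, against 5.93 at the lowest, 6.16 at the median and 7.59 at the highest of 14 controls. All 3 FGF2 samples lay above 13 of the 14 controls, whose next highest value was 6.43, and the exception was control 1. The group means were 6.98 ± 0.42 in FGF2 ovaries and 6.29 ± 0.41 in controls (SD), a log2 change of 0.69 (SE 0.21, 95% interval 0.26 to 1.13) or 1.62-fold. The unadjusted p of limma was 0.0025, the adjusted p was 0.112, and an exact two-sided permutation test gave p = 0.025. Without control 1 the change was 0.80 with an adjusted p of 0.00476. Without FGF2 sample 1 it was 0.46 with an adjusted p of 0.643, and with both left out 0.56 with an adjusted p of 0.219. With all 4 arrays of low oocyte markers left out it was 0.56 with an adjusted p of 0.175. The highest Mfng values of the 38 arrays were thus on FGF2 sample 1 and control 1, the pair lowest in oocyte markers (7.71 and 8.12). FGF2 samples 2 and 3, at oocyte marker levels of 10.26 and 9.88, were above every control but control 1.

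Numb, the gene with the narrowest intervals of the main set, was also highest with FGF2. Its log2 level was 9.46, 9.43 and 9.42 in FGF2 ovaries, against 8.83 at the lowest, 9.08 at the median and 9.70 at the highest of the controls. The FGF2 samples spanned 0.0345 log2 units and lay above 13 of 14 controls, the exception being control 9. The means were 9.44 ± 0.02 in FGF2 ovaries and 9.11 ± 0.21 in controls (SD), a log2 change of 0.33 (SE 0.10, 95% interval 0.12 to 0.53; unadjusted p of limma 0.0027, adjusted p 0.117, exact permutation p = 0.025). Without control 9 the change was 0.37 with an adjusted p of 0.00913, and without any other single control the adjusted p was 0.113 to 0.152. Without the 4 arrays of low oocyte markers the change was 0.30 with an adjusted p of 0.42.

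**Figure D2:**
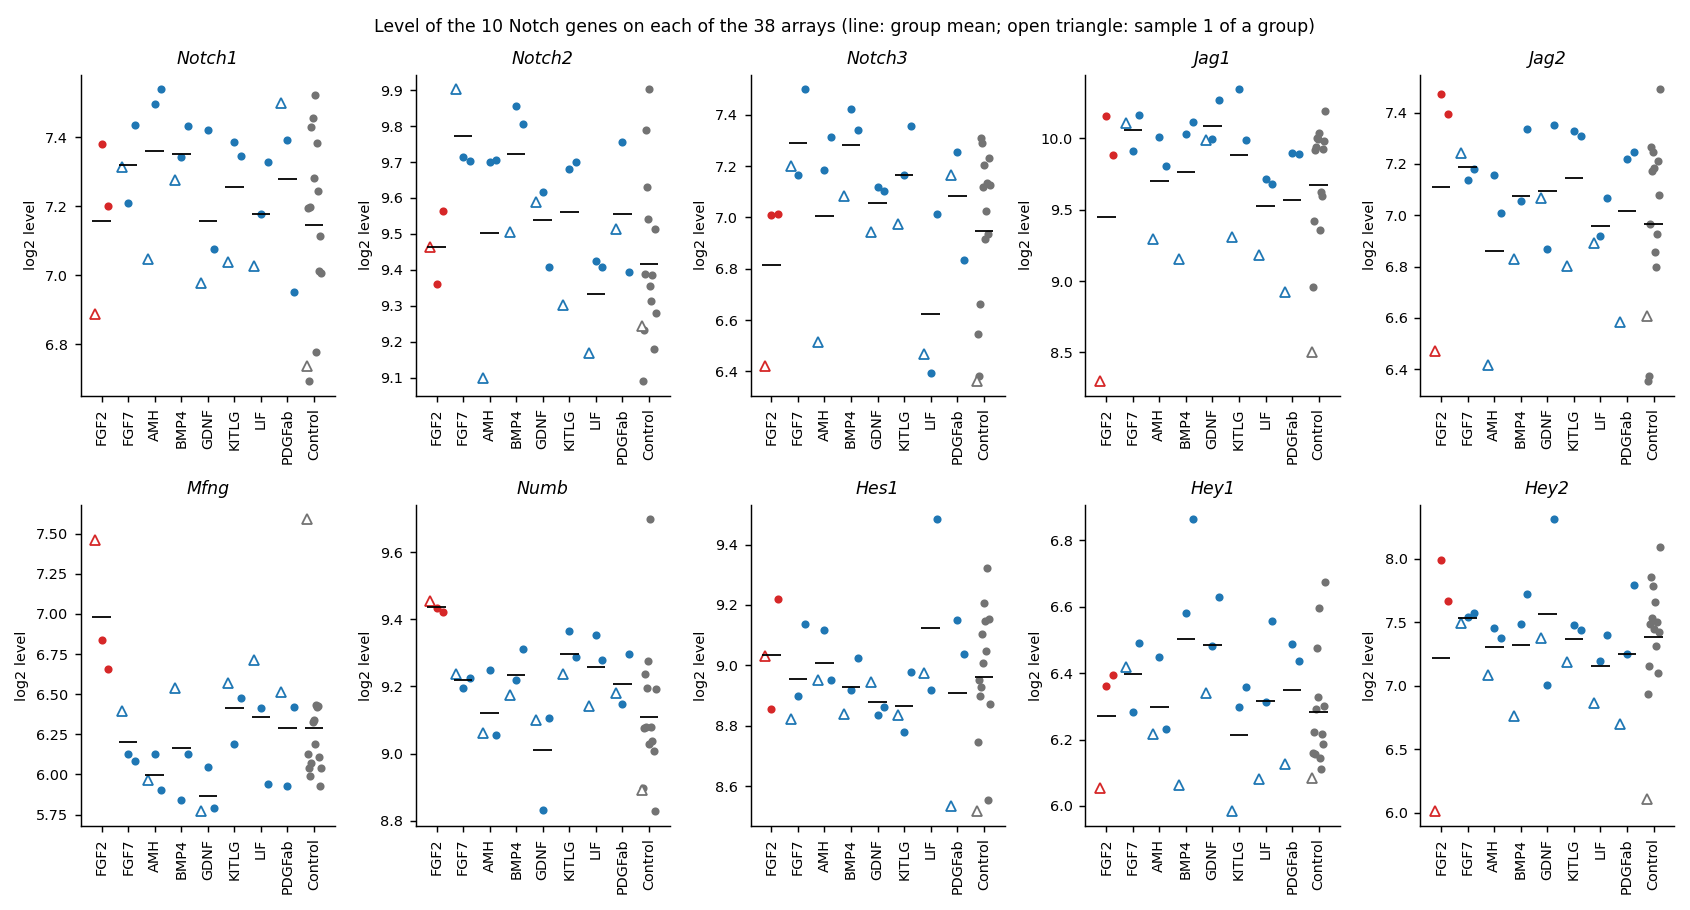
Log2 level of each gene on each of the 38 arrays of the main set, with the growth factor groups (3 samples each) to the left of the 14 controls, the group mean as a line and sample 1 of each group as an open triangle. Mfng and Numb have their highest group means in FGF2 ovaries, and for Jag1, Hey1 and Hey2 the triangles lie lowest in 7 of 8 growth factor groups.

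The other 8 genes did not differ between FGF2 ovaries and controls by more than the spread between samples. Their log2 changes lay between -0.23 (Jag1, 95% interval -0.84 to 0.39) and 0.15 (Jag2, -0.26 to 0.55). Without FGF2 sample 1 they lay between 0.05 (Notch2) and 0.47 (Jag2, unadjusted p of limma 0.0402, adjusted p 0.562), and 4 of them turned from below 0 to above it: Notch3 to 0.07, Jag1 to 0.34, Hey1 to 0.10 and Hey2 to 0.44. Jag1 and Hey2 were uneven within the group. Jag1 measured 8.30, 10.16 and 9.88 in FGF2 ovaries, against 8.51 to 10.20 in controls with a median of 9.92, so that FGF2 sample 1 was below every control and sample 2 near the top of their range. Hey2 measured 6.01, 7.99 and 7.66 in FGF2 ovaries, against 6.11 to 8.09 in controls with a median of 7.46, which is the same split.

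Among the receptors, Notch2 was highest with FGF7 and BMP4. FGF7 is a fibroblast growth factor that acts through a receptor form of epithelial cells, and BMP4 is a ligand of the TGF-beta superfamily. Notch2 measured 9.90, 9.71 and 9.70 in FGF7 ovaries and 9.50, 9.85 and 9.81 in BMP4 ovaries, against 9.09 at the lowest, 9.37 at the median and 9.90 at the highest of the controls. All 6 treated samples were above the control mean of 9.42 ± 0.23, and 5 of them lay below the highest control, with FGF7 sample 1 at the level of that control. The log2 change was 0.36 with FGF7 (SE 0.13, adjusted p of limma 0.424, exact permutation p = 0.0235) and 0.30 with BMP4 (SE 0.13, adjusted p 0.463, exact permutation p = 0.0529). Notch3 had similar values, 0.34 with FGF7 (adjusted p of limma 0.701) and 0.34 with BMP4 (adjusted p 0.624). Notch1 changed by 0.17 with FGF7 and 0.20 with BMP4, within intervals that include 0. These comparisons share their controls.

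GDNF, the glial cell line-derived neurotrophic factor, gave the lowest group mean of Mfng in the main set. It measured 5.77, 6.04 and 5.79 in GDNF ovaries, against the controls' 5.93 to 7.59. The log2 change was -0.42 (95% interval -0.85 to 0.01, adjusted p of limma 0.309), and without the 4 arrays of low oocyte markers it was -0.32 with an adjusted p of 0.204. Jag1 was at its highest group mean with GDNF, 10.09 ± 0.16, against 9.68 ± 0.48 in controls (SD), a log2 change of 0.41 with a 95% interval of -0.20 to 1.02, and of 0.32 without the 4 arrays. With AMH, KITLG, LIF and PDGFab the changes of all 10 genes lay between -0.32 (Notch3 with LIF) and 0.22 (Notch3 with KITLG), and every interval included 0. Without the 4 arrays they lay between -0.29 (Notch3 with LIF) and 0.40 (Jag1 with KITLG, against 0.21 with all arrays), with an unadjusted p of 0.123 for the last.

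Ordered by mean level, the 9 groups of the main set followed one another closely in each gene. Of 80 steps between neighbours in these orders, 2 were larger than the larger SD of the pair. They were the step from FGF2 to KITLG in Mfng (6.98 ± 0.42 and 6.41 ± 0.20) and in Numb (9.44 ± 0.02 and 9.30 ± 0.07). For the other 8 genes no group stood apart from its neighbours by more than that spread. Hes1, a repressor long known as a direct Notch target, spanned only 8.86 ± 0.10 (KITLG) to 9.12 ± 0.31 (LIF) over all group means. Its values in the 14 controls ran from 8.52 to 9.32, a 1.75-fold range, while Hey2 covered a 3.94-fold range in the same controls, Jag1 3.22-fold and Mfng 3.17-fold.

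FGF2 and FGF7, both fibroblast growth factors, were also set against each other directly. Mfng differed most, at 7.46, 6.84 and 6.65 in FGF2 ovaries and 6.40, 6.13 and 6.08 in FGF7 ovaries, a log2 difference of 0.78 (95% interval 0.23 to 1.33, adjusted p of limma 0.872), and of 0.54 without FGF2 sample 1. Jag1 differed by -0.61 with a wide interval of -1.40 to 0.17, and without FGF2 sample 1, which lay far below the others, by -0.04. Notch3 was lower in FGF2 ovaries (6.42, 7.01 and 7.01) than in FGF7 ovaries (7.20, 7.17 and 7.50), by -0.47 with an interval of -0.95 to -0.002 and an adjusted p of 1, and by -0.28 without FGF2 sample 1. The 2 groups did not overlap for 4 of the 10 genes (Notch2, Notch3, Mfng and Numb), as was so for 10.7% of all probe sets. With 3 samples each, an exact permutation test cannot give a p below 0.1, and 0 of the 10 genes passed the adjusted threshold that 0.0475% of all probe sets passed (2 of 10, Mfng and Notch3, at an unadjusted p under 0.05, against 4.16%, and neither without FGF2 sample 1, with unadjusted p of 0.0742 and 0.277).

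CTGF, the connective tissue growth factor, gave log2 changes of -0.12 (Mfng) to 0.18 (Notch2) against its own controls. Every 95% interval of the fit without pairs included 0. Here each treated sample has a control of the same number that resembles it. Hey2 shows the pairing best. It measured 8.85, 8.20 and 7.25 in CTGF ovaries, against 8.92, 8.22 and 7.38 in their controls, so that pairs 1, 2 and 3 differed by -0.07, -0.02 and -0.13 while the controls themselves differed by up to 1.54. Notch2 was higher in 2 of 3 pairs (9.40, 9.94 and 9.88 in CTGF ovaries, against 9.18, 9.58 and 9.91 in controls). With the pair as a block in limma, Notch2 had an unadjusted p of 0.0698 and an adjusted p of 0.517, both the lowest of the 10. The SE of the Hey2 change was 0.067 in that fit.

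**Figure D3:**
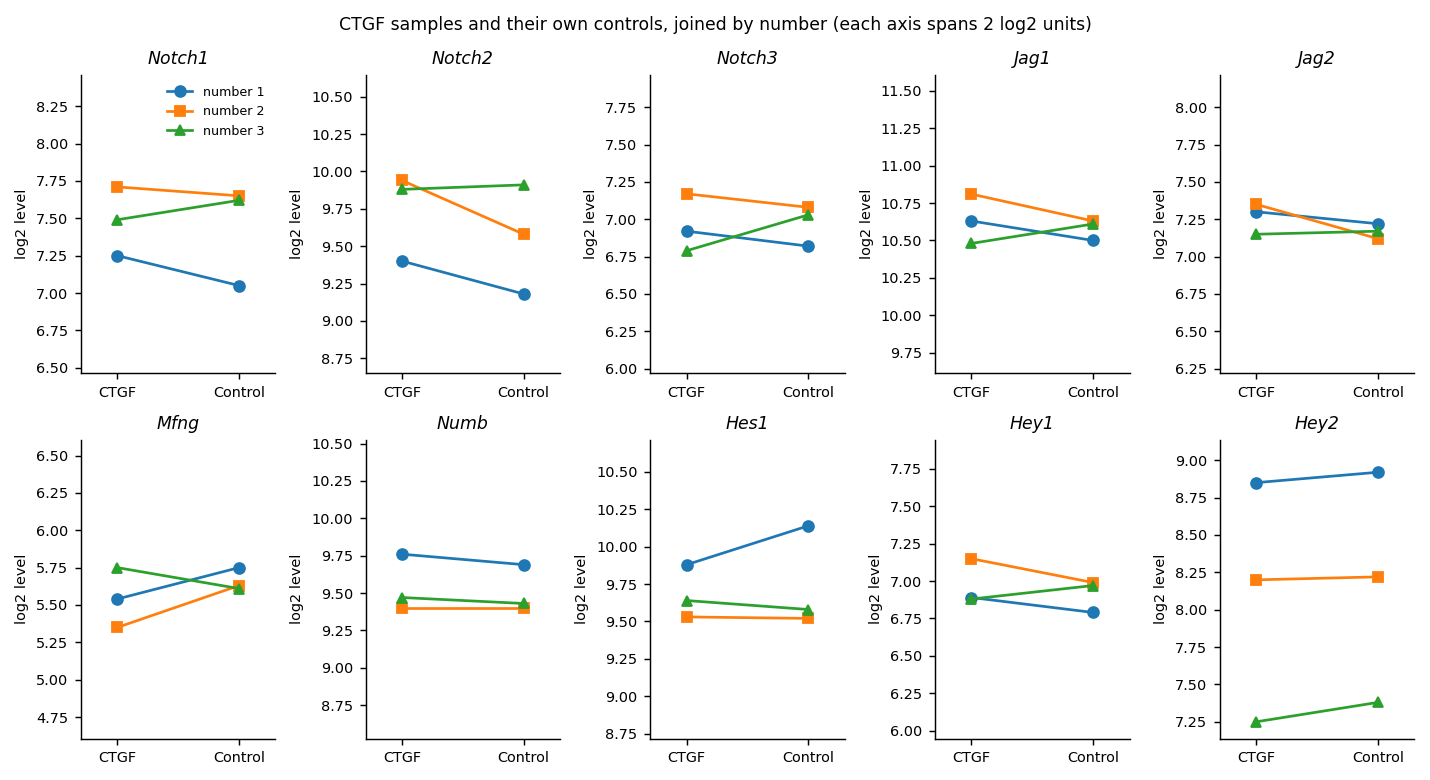
Log2 level of each gene in the 3 CTGF samples (left) and their 3 controls (right), joined by replicate number, every axis spanning 2 log2 units. The 3 lines of Hey2 are nearly level while the controls differ by up to 1.54, so that Hey2 samples of the same number lie closer than samples of the same group.

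Among the controls alone, several Notch genes rose and fell together. Over 45 pairs of the 10 genes, 10 had a Pearson correlation past the threshold after adjustment over the pairs (permutation test with 100000 resamples, n = 14 controls), all above 0, and 8 of them also did by Spearman's rank correlation. The ligands Jag1 and Jag2 had r = 0.826 (permutation p = 0.00044, adjusted 0.0133; rho = 0.855, permutation p = 0.00021), and r = 0.862 without the 2 controls farthest from the median of Jag1. Notch3 and Jag2 had r = 0.813 (permutation p = 0.0006, adjusted 0.0133; rho = 0.688, permutation p = 0.0082), and 0.705 without the 2 farthest. For Jag1 and Hey2, r = 0.821 (permutation p = 0.00089, adjusted 0.0133; rho = 0.604, permutation p = 0.025) became 0.419 without the 2 farthest, controls 1 and 2, so that relation rests on those samples. Without control 1, only 2 of the 45 pairs passed the threshold, both among the 10. Mfng, Hes1 and Numb were in none of the 10 pairs.

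The levels were also set beside marker lists of the ovary's cell types, a comparison added after the values were seen. Of 70 relations between a gene and a list's mean level over the 14 controls, 6 passed by Pearson's r and 1 of these also by rank. Notch3 followed the 8 endothelial markers (r = 0.762, permutation p = 0.00149, adjusted 0.0209; rho = 0.820, permutation p = 0.00056, adjusted 0.0392), with r = 0.787 without the 2 controls farthest from the median of the markers. Notch1 and Jag1, both known from blood vessels, also followed them by r (0.794 and 0.782, permutation p = 0.00072 and 0.00091, both adjusted 0.0177), with rho of 0.749 and 0.758 (permutation p = 0.00293 and 0.00239, both adjusted 0.0513) and r of 0.644 and 0.627 without the 2 farthest. Mfng ran against the oocyte markers (r = -0.915, permutation p = 0.0006, adjusted 0.0177; rho = -0.635, permutation p = 0.0165, adjusted 0.121), and without controls 1 and 9 r was -0.549. It also followed the surface epithelium markers (r = 0.797, permutation p = 0.00101, adjusted 0.0177; rho = 0.578, permutation p = 0.0335, adjusted 0.159), with r = 0.520 without controls 1 and 10. The relation of Jag1 with oocyte markers (r = 0.792, permutation p = 0.00389, adjusted 0.0454; rho = 0.675, permutation p = 0.01) likewise fell to 0.405 without controls 1 and 9. The part of cell composition in the changes with FGF2 was not tested beyond leaving out those arrays.

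**Figure D4:**
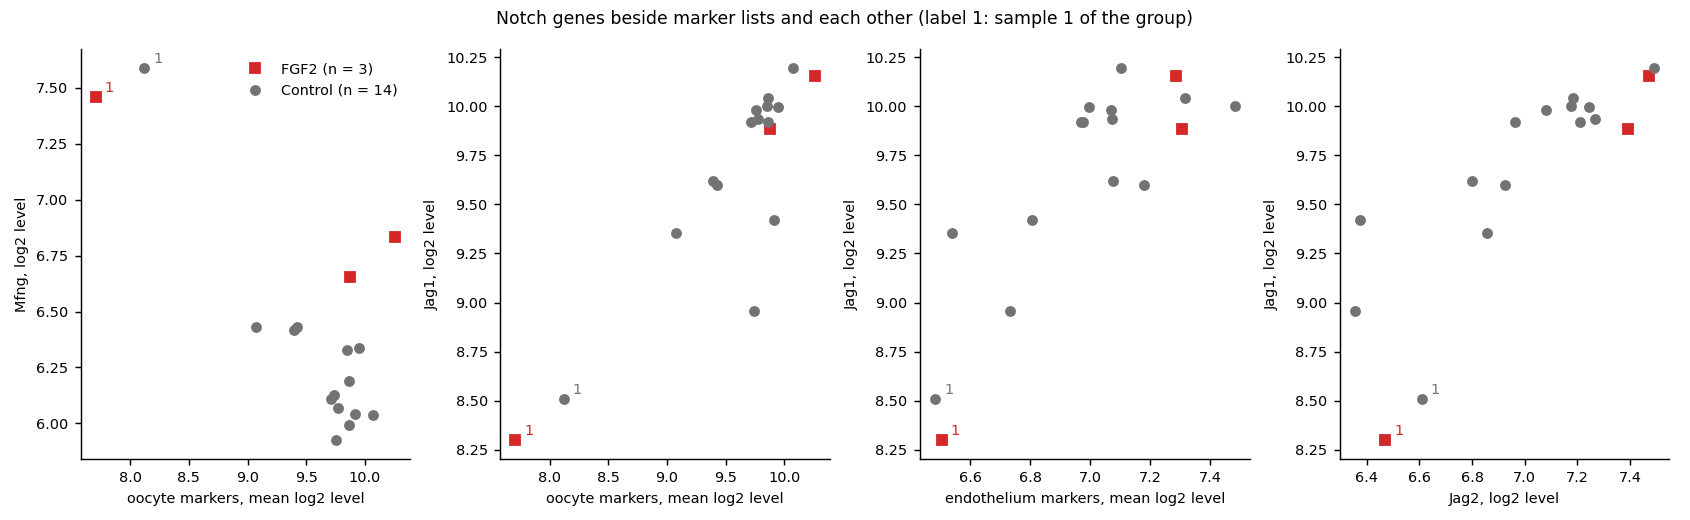
Mfng and Jag1 beside the mean log2 level of oocyte markers, and Jag1 beside endothelial markers and Jag2, in 3 FGF2 ovaries (red squares) and 14 controls (grey circles), with sample 1 of each group marked. In the first panel FGF2 samples 2 and 3 (6.84 and 6.65) sit above every control but control 1, and both samples marked 1 lie at high Mfng and low oocyte markers.

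A further regularity ran across the growth factor groups. The sample numbered 1 was the lowest of its group in 7 of 8 growth factors for Jag1, Hey1 and Hey2, in 6 of 8 for Notch1 and Jag2, and in 1 of 8 for Mfng. Jag1 in the samples numbered 1 ran from 8.30 to 10.11, against 9.72 to 10.35 in those numbered 2 and 9.68 to 10.27 in those numbered 3. The study cultured controls with 1 to 3 growth factors on any given day, and the labels do not say which samples shared a day, so a fit with the day as a term was not possible.

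Over the 38 arrays, the genes whose log2 levels were most like those of a Notch gene were found by Pearson's r, given as a description over samples that share cultures and groups. Jag1 was followed most closely by Kcnq1 (r = 0.958), Pgm2l1 (0.953) and Dclk2 (0.952), and Jag2 by Usp19 (0.919), Vac14 (0.909) and Spire2 (0.881). Mfng was most like Kirrel1 (0.876), Cdc42ep1 (0.868) and Mmd (0.834), and Hey2 was most like Aldh9a1 (0.875), Siah2 (0.863) and Fbxo43 (0.859). For Notch2 they were Nsd1 (0.891), Ttc7b (0.836) and Rapgef2 (0.832). Notch1 was most like Reln (0.790), Bcl6b (0.758) and Arhgap31 (0.746), and Notch3 was most like Igsf11, Kcnh2 and Myo10 (0.746 to 0.750). The highest values were lower for Numb (Chrm3 0.782, Abcc1 0.774, Mbnl2 0.696), Hey1 (Kbtbd11 0.769, Cdca4 0.758, Angptl6 0.749) and Hes1 (Glb1l3 0.714, Pla2g7 0.705, Prkag1 0.690).

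Beyond the 10 genes, 41 of 51 other listed genes of the pathway were measured. With FGF2, 1 of the 41 rose past the adjusted threshold and 0 fell (0.94% of all probe sets passed), while 6 were higher and 1 lower at an unadjusted p under 0.05 (7.35% and 4.82% of all probe sets). The median change of the 41 was 0.02, against -0.01 over all probe sets. The gene that rose was Psen2, a catalytic subunit of γ-secretase. It measured 8.76, 9.21 and 9.05 in FGF2 ovaries, against 8.06 to 8.79 in controls. The means were 9.01 ± 0.23 in FGF2 ovaries and 8.42 ± 0.17 in controls (SD), a log2 change of 0.58 (SE 0.13, adjusted p of limma 0.0172, exact permutation p = 0.0029). The call was lost when any of the 3 FGF2 samples was left out (adjusted p 0.0522, 0.109 and 0.0903 without samples 1, 2 and 3) and without the 4 arrays of low oocyte markers (change 0.71, adjusted p 0.0627). Psenen, another subunit of the same enzyme (log2 change 0.31, adjusted p of limma 0.163), and Lfng, a second fringe transferase (0.38, adjusted p 0.205), were higher at the unadjusted level, and without FGF2 sample 1 the change of Lfng was 0.13 (adjusted p 0.877). Snw1, a nuclear partner of the freed receptor, had a change of -0.24 (adjusted p 0.128).

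In the other comparisons 0 of the 41 passed the adjusted threshold of limma. At an unadjusted p under 0.05 there were 2 to 6 of the 41 in each against controls. The genes higher and lower are given here beside the share of all probe sets that reached that level. They were 2 and 1 with FGF7 (7.57%), 2 and 2 with AMH (5.08%) and 2 and 2 with BMP4 (8.97%). With GDNF they were 3 and 0 (17.1%), with KITLG 2 and 0 (8.66%) and with LIF 2 and 0 (7.25%). With PDGFab they were 3 and 3 (9.79%), and with CTGF 1 and 1 (3.12%). Between FGF2 and FGF7 there was 1 of the 41, against 4.16% of all probe sets. Dlk1, a non-canonical Notch ligand, measured 8.85, 9.00 and 8.93 in PDGFab ovaries, against 7.53 to 8.60 in controls. All 3 samples were above every control. Over the 9 comparisons with controls, treated samples lay wholly outside the control range in 1.6% of the tests of all probe sets. That share includes CTGF, which had fewer controls, so that separation by chance is more likely there. The share with PDGFab alone is not given here, so the pooled share is not read as a background for Dlk1. The log2 change of Dlk1 with PDGFab was 0.87 (SE 0.23, adjusted p of limma 0.0886, exact permutation p = 0.0015, the smallest that 680 splits allow). Without the 4 arrays of low oocyte markers it was 0.90 with an adjusted p of 0.00313. Dlk1 also had the lowest unadjusted p with LIF (log2 change 0.53, adjusted p 0.59), where it was 0.24 with an adjusted p of 0.999 without those arrays. With GDNF the lowest was that of Hes7, a Hes repressor best known from the segmentation of the embryo, at 5.40 ± 0.16 in GDNF ovaries and 5.05 ± 0.16 in controls (SD, log2 change 0.35, adjusted p of limma 0.0623, exact permutation p = 0.0029), and without the 4 arrays the change was 0.37 with an adjusted p of 0.0211.

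The lowest unadjusted p-values elsewhere belonged to enzymes and regulators with small changes. With FGF7 they were those of Psen2 (log2 change 0.33, adjusted p of limma 0.463) and of Rbpj, the nuclear partner of the pathway (0.24, adjusted p 0.540). With BMP4 they were those of Psenen (0.27, adjusted p 0.391) and Neurl1, a ubiquitin ligase of the ligands (-0.17, adjusted p 0.444), and with KITLG those of Dtx2 (0.26, adjusted p 0.407) and Psenen (0.27, adjusted p 0.435). AMH gave Hes5 (-0.25, adjusted p 0.958) and Hes2 (0.18, adjusted p 0.982), and CTGF gave Hes5 (-0.20) and the Delta ligand Dll4 (0.29), both with an adjusted p of 1. The corepressor Cir1 had a change of 0.20 with GDNF (adjusted p 0.268) and of -0.25 with PDGFab (adjusted p 0.318), and Hes6 one of 0.28 with LIF (adjusted p 0.644). Hes2 and Neurl1 were dim, with control means of 4.04 and 4.43, under the first quartile of all probe sets of the main set (4.52). Between FGF2 and FGF7 the lowest were those of Numbl, a relative of Numb (0.32), and Itch (-0.25), both with an adjusted p of 1, and without FGF2 sample 1 the differences were 0.15 and -0.06.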

How the data were processed

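RNA of whole cultured rat ovaries was measured on 44 Affymetrix Rat Gene 1.0 ST arrays. The authors ran RMA (robust multi-array average) with an adjustment for GC content in Partek Genomic Suite, separately for 38 arrays and for the 6 of the CTGF set, and deposited the resulting log2 levels. They were used as deposited, and tests stayed within a set. Symbols came from the platform annotation (1 symbol for 15097 probe sets, several for 323, none for 11922), and 15067 were matched by gene number.

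Each growth factor was compared with its controls by limma 3.58.1 in R 4.3.3, with all groups of a set in 1 fit and Benjamini-Hochberg adjustment over all probe sets. Single genes were also given exact two-sided permutation tests over samples (680 splits for 3 against 14, 20 for 3 against 3). The number of arrays limits the precision. Each sample is 1 culture well of pooled ovaries. Same-numbered CTGF samples and controls deviated together (r = 0.842, 0.623 and 0.647), so the numbers pair there.

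The genes named were the 10 members, other pathway genes that passed or, where none passed, the 2 with the lowest unadjusted p, and the 3 genes most like each member; Lfng and Snw1, and Psenen with FGF2, were added after their values were seen. The members and lists were chosen with earlier results of these data known. Alternatives covered the test, arrays fitted, replicate block, array weights, variance model, normalization, dim probe sets and samples left out. The scripts were tested on simulated data. Tables were made with Python 3.11.15.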

Additional observations from a re-analysis of the deposited data

How the results depend on the processing

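Across 100 results for the 10 genes (9 growth factors and FGF2 minus FGF7), 58 alternatives gave 2710 values, of which 9 passed the adjusted threshold that none passed in the fits reported. The 4 changes with an unadjusted p under 0.05 against controls and the 2 between FGF2 and FGF7 kept their sign in all of their 178 values. Of the 2710 values, 173 had another sign. Several alternatives leave the log2 change itself as it was, and those that leave out samples share most arrays. A kept sign was therefore largely fixed in advance.

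The number of Notch genes called with FGF2 was 0, and 1 with the replicate block (Numb, log2 change 0.48, adjusted p 0.0162), 1 without control 1 (Mfng) and 1 without control 9 (Numb), the controls being left out in turn after the values were seen, and 2 by the study criteria. With FGF7 it was 3 with the replicate block (Notch2 0.58, Notch3 0.86, Jag1 1.10) and 1 by the study criteria, with BMP4 1 by the study criteria, and with GDNF 3 with the replicate block (Notch3 0.62, Jag1 1.12, Jag2 0.65). Between FGF2 and FGF7 it was 2 by the study criteria. Over the 9 comparisons with controls, 4.21% of all probe sets met those criteria, again with limma's p in place of that of the study's own test. The shares of all probe sets called under the other settings are not given here, so these counts are not read as a result about the Notch genes. In the main set the number does not pair samples in general, with an exception for number 1. Sample 1 of FGF2, KITLG and LIF matched control 1 best of all controls (r = 0.740, 0.615 and 0.694). Those are the arrays of low oocyte markers. Same-numbered samples and controls correlated at -0.555 to 0.74 and most matched a control of another number best, and the block sets treated samples against controls 1 to 3 alone, which include control 1 (Jag1 8.51, 8.96 and 9.42 in controls 1, 2 and 3). In the CTGF set the block changed no call.

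Of the other 41 pathway genes, 1 was called with FGF2 (Psen2). The count was 0 by either form of the methods' t-test, with the arrays of the comparison alone, without control 1 and FGF2 sample 1 together and without the 4 arrays of low oocyte markers, 0 to 1 without each FGF2 replicate in turn (the 1 being Snw1) and 6 by the study criteria. From 0 it moved to 1 with FGF7 and 1 with BMP4 under array weights, and to 4 with GDNF and 4 with PDGFab under them. With GDNF it was also 2 with the replicate block, 1 without controls 12 to 14, 0 to 1 without each control in turn and 1 without the 4 arrays (Hes7). With PDGFab it was 1 by the t-test on linear values and 1 without the 4 arrays (Dlk1). The study criteria gave 1 with FGF7, 1 with AMH, 1 with BMP4, 1 with LIF, 2 with PDGFab, 1 with CTGF and 1 between FGF2 and FGF7. The shares of all probe sets called under these alternative settings are not given either, so these counts are not read as a result about the pathway. The cause of these changes was not tested. Of the 45 pairs of genes in the controls, 10 were related, 2 without the 2 controls farthest from the median, 2 without control 1 and 14 without controls 12 to 14.

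Another probe set of the same gene could not be tried, since each of the 10 genes had 1. With 3 treated samples, a change smaller than the reach of its interval could not be detected, and a larger one could still miss the adjusted threshold. With FGF2, Mfng was called when control 1 alone was left out, but not when FGF2 sample 1 was left out as well. Numb was called when control 9 alone was left out, and with the replicate block.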
